A study of Mus musculus with 69 samples.

Results

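Mono-methylation of lysine 4 of histone H3 (H3K4me1) was compared between Kmt2c-knockout and wild-type hematopoietic stem cells (HSCs) of mice that had received 5-fluorouracil (5FU). The comparison consists of the deposited H3K4me1 peak list of each genotype, and the lists were chosen by their labels. They rest on 10 of the 69 samples of the series and are 2 of its 18 peak lists. The knockout mice carried floxed Kmt2c alleles together with Vav-Cre, a recombinase driven by regulatory sequence of the blood-cell gene Vav1, so that deletion is directed to blood cells. The other mice are labelled wild type with no further allele given, and the labels name neither sex nor antibody, nor whether libraries came from separate animals. Both groups were 16 weeks old and had received 3 doses of 150 mg/kg 5FU, 3 weeks apart. The control treatment at the same age was phosphate-buffered saline (PBS), with 3 knockout and 4 wild-type H3K4me1 libraries. Further H3K4me1 lists came from HSCs of untreated mice at 8 weeks of age. These mice were knockout, wild type or heterozygous for Kmt2c, with 3 libraries each. The 8-week lists thus differ from the 5FU lists in treatment as well as in age. Lists of a second histone mark, H3K27ac, came from HSCs of 16-week-old knockout and wild-type mice. These mice had received 5FU or PBS on the same schedule, with 3 libraries per group. Also used were H3K4me1 lists of cells labelled HPC (hematopoietic progenitor cells), from untreated knockout and wild-type mice at 8 weeks, with 3 libraries each. Stem cells were sorted and fixed, and chromatin was profiled by ChIPmentation, in which the transposase Tn5 inserts sequencing adapters into the immunoprecipitated chromatin.

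The knockout list was made from 4 libraries of 1 library series, and the wild-type list from 6 libraries, 3 of that series and 3 of a second one. Each list pools its libraries, so there is no replicate of any value below, no test between genotypes was possible, and genotype cannot be told apart from the number of libraries and the library series. The knockout list held 76274 peaks that covered 44.2 Mb and the wild-type list 132050 peaks that covered 116.0 Mb, which is 1.73 times as many peaks and 2.62 times as many bases. Peaks within a list did not overlap, and each is called a region. The highest −log10 p of the peak caller was 26.3 in the knockout list and 65.2 in the wild-type list. The read depth behind the lists is unknown, since the peak files hold no read counts. Because of the difference in size, comparisons are also given with the larger list limited to the same number of strongest peaks, or to the same number of covered bases.

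Kmt2c (MLL3) and its relative Kmt2d (MLL4) are histone methyltransferases that place H3K4me1 at enhancers, in complexes that also hold Kdm6a (UTX), a demethylase of another histone mark. H3K4me1 marks both active and poised enhancers and flanks promoters, while acetylation of lysine 27 (H3K27ac) marks the active ones. 5FU blocks thymidylate synthase and kills dividing cells, and repeated doses drive resting stem cells into division.

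The regulatory sequence upstream of Vav1, a signalling protein of blood cells, was covered differently in the knockout and wild-type HSC lists. Vav1 (gene 22324, chromosome 17, 57279100 to 57329236, mm10) had a peak at 57277978 to 57279072 in the knockout list after 5FU. Its −log10 p of 25.3 was exceeded by 1 region of the list. The strongest wild-type region there, at 57277998 to 57278793, had a −log10 p of 11.7, and 9627 regions (7.29%) were stronger. In the PBS lists, 3 knockout regions and 43643 wild-type regions were stronger than the one upstream of Vav1. The annotated Vav1 promoter, from 250 bases before to 50 bases after the start, had 223 of its 300 bases covered in the knockout list after 5FU, 159 after PBS and 259 at 8 weeks, and 247 in heterozygous HSCs at 8 weeks. None of the 3 wild-type HSC lists covered a base of it. Reads from the endogenous gene and from a transgene with the same sequence would fall on this position alike, and a peak list cannot separate them. The promoter is shown because it separated the genotypes by label. It lies at chr17:57278850-57279149 on the plus strand, and like the promoters printed after it, it was taken from RefSeq on GRCm38.p6.

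Vav1: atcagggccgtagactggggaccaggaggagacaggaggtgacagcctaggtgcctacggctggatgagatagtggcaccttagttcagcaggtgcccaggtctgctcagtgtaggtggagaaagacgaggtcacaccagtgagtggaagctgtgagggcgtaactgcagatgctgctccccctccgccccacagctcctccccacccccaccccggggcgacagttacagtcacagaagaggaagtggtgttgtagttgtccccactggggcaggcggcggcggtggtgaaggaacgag

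Whether Kmt2c exons were deleted is not visible in peaks. Around Kmt2c (gene 231051, chromosome 5, 25271795 to 25498855), H3K4me1 regions covered 4454 bases in the knockout and 25285 in the wild-type list after 5FU, and 4534 and 2826 bases after PBS. At 8 weeks they covered 24742 and 10024 bases, so the knockout list had more after PBS and at 8 weeks and less after 5FU. The order after 5FU was common to nearly all genes. Only 11 of 16910 genes with at least 1000 covered bases in a list had more in the knockout list then. The values at Kmt2c thus do not show a difference between treatments.

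Another 4 promoters are shown because all of their 300 bases lay inside strong wild-type regions with no counterpart in the knockout list. Strong means the top 25% of a list by −log10 p, with regions tied at the limit included. There were 58 such promoters of 55 genes. H2-Ob, which encodes a chain of the MHC class II chaperone H2-O, lay in the strongest region of these that belongs to a protein-coding gene (chr17:34238655-34238954, plus strand, −log10 p 13.3). Ccl3 encodes an inflammatory chemokine (chr11:83649329-83649628, minus strand). Ppbp encodes a platelet chemokine precursor (chr5:90768268-90768567, plus strand). Stat5a encodes a transcription factor of cytokine receptor signalling, and the start shown is 1 of its 2 annotated ones (chr11:100859406-100859705, plus strand). The last 3 were chosen for their role in blood cells after the values were seen. Capitals mark matches to the RUNX motif TGTGGT or the AP-1 motif TGANTCA, on either strand. In the same sequences no match was found to the motif for GATA factors, which is AGATAA, that for ETS factors, which is CCGGAAG, or the E-box, which is CACGTG, and none of the 5 motifs contains another.
H2-Ob: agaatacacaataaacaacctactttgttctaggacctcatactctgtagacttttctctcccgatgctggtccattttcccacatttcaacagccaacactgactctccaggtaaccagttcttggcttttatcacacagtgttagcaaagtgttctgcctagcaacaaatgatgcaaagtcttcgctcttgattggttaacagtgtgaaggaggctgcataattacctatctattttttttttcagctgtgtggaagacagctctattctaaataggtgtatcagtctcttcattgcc
Ccl3: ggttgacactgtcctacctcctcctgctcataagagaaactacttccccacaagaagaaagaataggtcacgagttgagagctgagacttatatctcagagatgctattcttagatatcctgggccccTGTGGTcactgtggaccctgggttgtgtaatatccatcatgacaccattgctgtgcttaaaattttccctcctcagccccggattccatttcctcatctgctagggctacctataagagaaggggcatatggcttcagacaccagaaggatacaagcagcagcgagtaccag
Ppbp: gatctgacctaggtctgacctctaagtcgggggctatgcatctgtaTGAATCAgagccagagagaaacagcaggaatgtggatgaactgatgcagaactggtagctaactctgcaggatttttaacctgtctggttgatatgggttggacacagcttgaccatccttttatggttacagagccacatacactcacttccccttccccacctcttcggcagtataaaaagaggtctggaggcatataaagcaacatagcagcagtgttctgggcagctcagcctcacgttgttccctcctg
Stat5a: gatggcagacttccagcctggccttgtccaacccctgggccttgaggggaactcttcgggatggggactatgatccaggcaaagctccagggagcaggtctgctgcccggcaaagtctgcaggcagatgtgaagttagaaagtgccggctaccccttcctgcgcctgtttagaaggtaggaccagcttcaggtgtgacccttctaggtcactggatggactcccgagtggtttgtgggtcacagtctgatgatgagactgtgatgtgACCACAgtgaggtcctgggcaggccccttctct

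Elsewhere these promoters were not bare in knockout cells. In the knockout list at 8 weeks, 300 bases of the H2-Ob window, 300 of the Ccl3 window, 263 of the Ppbp window and 287 of the Stat5a window were covered. In the wild-type list at 8 weeks the Ppbp window had 0 covered bases, against 300, 300 and 225 for H2-Ob, Ccl3 and Stat5a. In the knockout list after PBS, 0 bases of each of the 4 windows were covered, against 300, 0, 187 and 0 bases in the wild-type list after PBS. H3K27ac peaks after 5FU covered all 300 bases of the Stat5a window in both genotypes, 237 bases of H2-Ob in the knockout and 212 in the wild type, 210 bases of Ccl3 in the wild type alone, and no base of Ppbp.

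The knockout list was nearly contained in the wild-type list. Of the 76274 knockout regions, 74639 (97.9%, 95% Wilson interval 97.8 to 98.0) overlapped the wild-type list by at least 1 base, and 82.7% lay wholly inside it. In the other direction 52827 of 132050 wild-type regions (40.0%, 39.7 to 40.3) overlapped the knockout list. Wilson intervals here cover counting error only. Both lists shared 43.0 Mb, which is 97.3% of the knockout bases and 37.1% of the wild-type bases. Wild-type regions were wider where they were shared, with a median width of 1163 bases against 397 bases for those with no knockout region. Among the shared wild-type regions, 15514 (29.4%) held 2 or more knockout regions, up to 12, whereas 1.70% of the shared knockout regions held 2 or more wild-type regions. The other 37313 shared wild-type regions held 1 knockout region each.

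The strength of a wild-type region went with its coverage in the knockout list. With the wild-type list divided into 10 deciles by −log10 p, 97.8% of regions were covered in the knockout list in the strongest decile, 86.6% in the second, 68.1% in the third and 30.8% in the fifth. In the last 2 deciles the share was 7.53% and 7.93%. The knockout list showed no such decline, with 100% of its strongest decile (7628 of 7628 regions) and 94.7% of its weakest decile covered in the wild-type list.

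**Figure D1:**
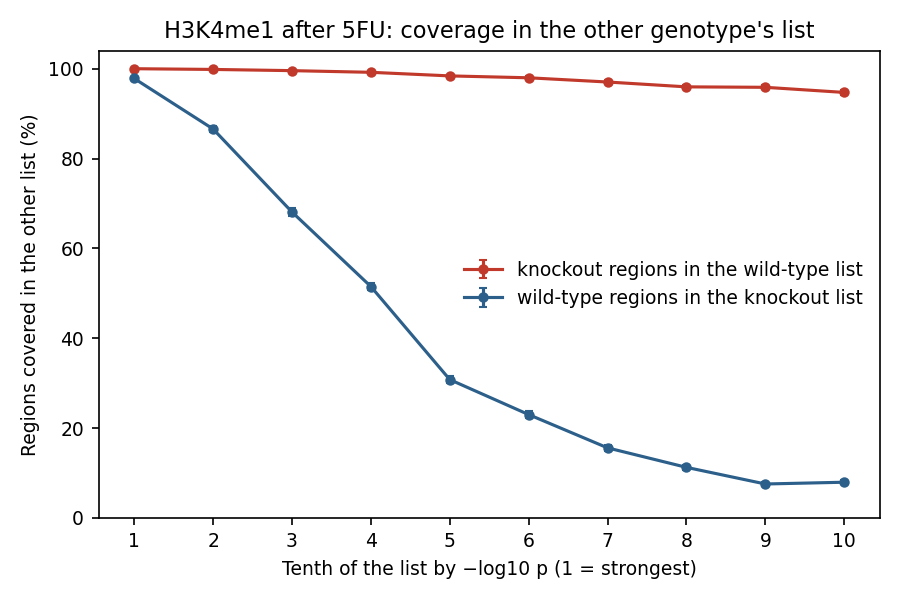
Regions of each list were ranked by −log10 p and split into deciles (x axis), and the y axis gives the percentage covered in the other genotype's list, with 95% Wilson intervals. The knockout curve stays between 94.7% and 100%, while the wild-type curve falls from 97.8% to below 8% in the last 2 deciles.

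Strong regions without a counterpart were almost all in the wild-type list. There were 26 in the knockout list (0.135% of its 19259 strong regions) and 4796 in the wild-type list (13.3% of 35942), so that 0.539% (0.368 to 0.789) of the 4822 were in the knockout list. Strong regions began at a −log10 p of 5.55 in the knockout and 7.75 in the wild-type list, and the values just below were 5.54 and 7.73. With ties at the limit, 25.25% of the knockout and 27.22% of the wild-type regions were strong. In a limited list, strong was redrawn as the top 25% of what remained. With the wild-type list limited to its strongest 76274 peaks the counts were 264 of 19259 (1.37%) and 1066 of 21135 (5.04%). With it limited to the 44.2 Mb of the knockout list, which left 21277 peaks, the order turned round. The counts were then 4531 of 19259 (23.5%) in the knockout and 38 of 5822 (0.653%) in the wild-type list. After PBS, where the wild-type list covered 1.22 times as many bases, the counts were 1416 in the knockout and 2363 in the wild-type list, or 3094 and 832 at equal covered bases. At 8 weeks, where the wild-type list covered 0.758 times as many bases, they were 1329 and 398, or 195 and 2020 at equal covered bases. In all 3 comparisons the list that covered more bases held more strong exclusive regions as deposited and fewer at equal covered bases.

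The 26 strong knockout regions without a wild-type counterpart were narrow and close to the limit for strong. Their widths ran from 163 to 869 bases and their −log10 p from 5.55 to 6.53, with 6 regions at the upper value and 19 at 5.76. Of the 26, 18 overlapped a protein-coding gene, 24 had one within 50 kb, and 0 had their midpoint within 1 kb of a gene start. The 6 strongest were near Vav1, Aunip, Inf2, Actn4, Foxk1 and Cdc42bpb. The Vav1 region (57277658 to 57277820) belonged to the peaks upstream of that gene described above. The Foxk1 region (chromosome 5, 142458586 to 142459044) lay inside the gene of a forkhead repressor of autophagy and metabolic genes. Aunip encodes a centrosome and DNA repair protein, Inf2 a formin that builds actin filaments, Actn4 an actin crosslinker and Cdc42bpb a kinase downstream of the small GTPase Cdc42. The next 2 by rank were near Etv6 and Myo10.

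Among the other 18, Etv6 had a second region, and others lay in or near genes that included Smad3, Meis1, Map3k14, Nbea, Dazl, Prnp, Rffl, Rnf207, Exoc3l2, Ctdspl, Ptprf, Csgalnact1, Fam102a and Katnbl1. Another 2 had no protein-coding gene within 50 kb. Etv6 is a transcriptional repressor that adult HSCs need, and its regions (chromosome 6, 134203079 to 134203947 and 134201943 to 134202771) were covered in the PBS and 8-week lists of both genotypes and by H3K27ac in both. Meis1 is a homeobox cofactor of stem cells, and its region (chromosome 11, 18889612 to 18889886) was covered in the knockout and heterozygous lists at 8 weeks and in neither other wild-type list. Map3k14, the kinase NIK of non-canonical NF-kB signalling, had a region (chromosome 11, 103223329 to 103223630) in none of the other HSC lists. Of the 26 regions, 15 were also in the knockout PBS list and 22 in the knockout 8-week list, while 11 were in the wild-type PBS list and 19 in the wild-type 8-week list. The 15 regions in all 3 knockout HSC lists included 13 that another wild-type list held, and the other 2 were those at Vav1 and Foxk1.

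Strong wild-type regions without a knockout counterpart were wider, with a median of 773.5 against 265.5 bases, and most had H3K4me1 in knockout cells under other conditions. The 8 leading ones lay in or near Mkrn1, Cacna1d, Osbpl8, Rap2a, Foxp1, Fgf12, Dynlt1b and Znrf1, with −log10 p of 16.9 for the first 4 and 16.1 for the others. All 8 were covered in the knockout lists after PBS and at 8 weeks, and 7 of them, all but Dynlt1b, in both wild-type lists as well. The region inside Mkrn1, which encodes a ubiquitin ligase (chromosome 6, 39416190 to 39418089), was 1900 bases wide. The one inside Foxp1, a forkhead factor of lymphoid and stem cells (chromosome 6, 99447781 to 99449221), carried H3K27ac after 5FU in both genotypes. The Dynlt1b region (chromosome 17, 6468790 to 6469178) lies among near-identical copies of a dynein light chain gene, so its position is uncertain. Around the same genes the knockout list was not empty, with 71656 bases covered within 50 kb of Foxp1 against 211662 in the wild-type list, and 2532 against 8546 bases around Mkrn1.

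Over all 4796 strong wild-type regions without a knockout counterpart, 50.6% (49.2 to 52.0) were covered in the knockout list after PBS and 92.1% (91.3 to 92.9) in the knockout list at 8 weeks. The wild-type lists covered 63.8% (62.4 to 65.1) after PBS and 85.9% (84.9 to 86.9) at 8 weeks. Of the strong wild-type regions that were shared after 5FU, the knockout lists covered 90.6% after PBS and 99.3% at 8 weeks, and the wild-type lists 95.3% and 97.9%. H3K27ac peaks after 5FU lay on 39.2% of the exclusive regions in the wild type and 33.2% in the knockout, and on 64.2% and 59.4% of the shared ones. The exclusive regions thus carried acetylation less often than the shared ones in both genotypes, and they were weaker in the wild-type list too (median −log10 p of 8.37 against 10.3).

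**Figure D2:**
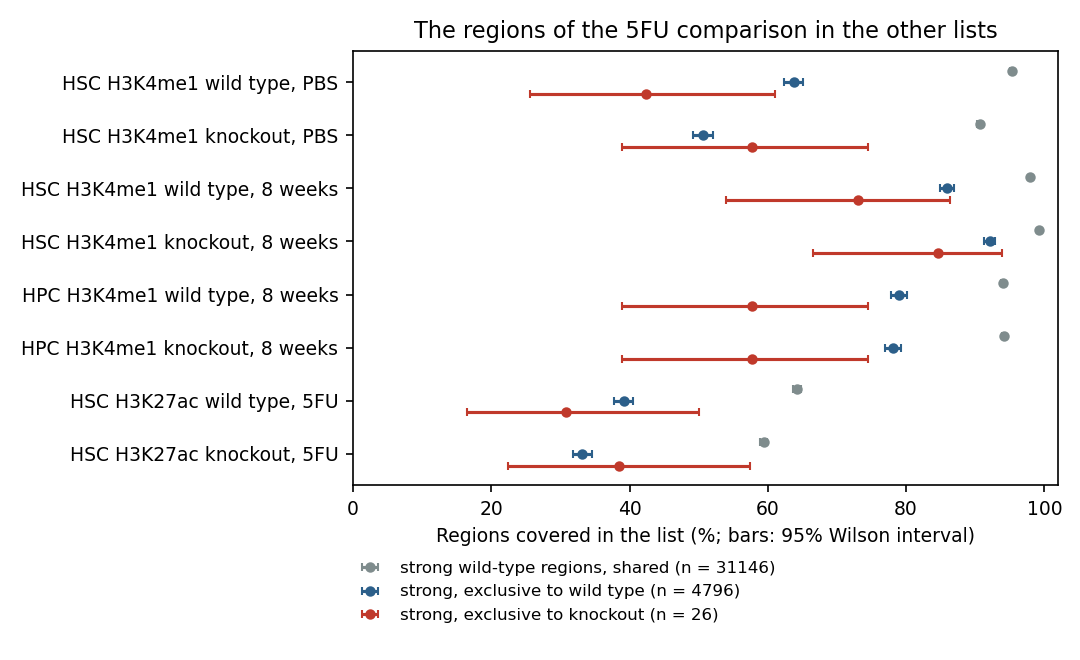
The percentage of each set of regions from the 5FU comparison that other lists cover (x axis), by list (y axis), with 95% Wilson intervals that cover counting error only. Shared regions (grey) were covered most often, at 90.6% or more in the HSC H3K4me1 lists, and regions exclusive to wild type (blue) were covered in 50.6% to 92.1% of cases in the same lists.

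The genotype comparison after PBS uses no list of the 5FU comparison. Of the 4796 exclusive wild-type regions, 1864 were in both PBS lists, 1194 in the wild-type list alone, 562 in the knockout list alone and 1176 in neither. Among those in one PBS list alone, 68.0% (65.8 to 70.1) were in that of the wild type, against 72.6% (71.0 to 74.1) of the strong regions that were shared after 5FU. With the PBS lists limited to equal covered bases, the shares were 41.4% (39.2 to 43.7) and 38.5% (37.1 to 39.9). The exclusive regions thus had a lower share than the shared ones in the full lists. At equal covered bases they had a higher share, with intervals that overlapped. Of the 4796 regions, 271 (5.65%) were in none of the 3 knockout HSC lists, and 57 of those were in all 3 wild-type HSC lists. The strongest of these 57, chosen after its values were seen, lay 727 bases from S1pr1, the receptor for sphingosine-1-phosphate that guides blood cells out of tissues (chromosome 3, 115709195 to 115709706, −log10 p 11.7).

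Exclusive and shared wild-type regions differed in where they lay. Of the strong exclusive regions 65.0% (63.7 to 66.4) overlapped a protein-coding gene by at least 1 base, against 73.8% (73.3 to 74.3) of the strong shared ones. The shared regions were also wider, with a median of 1540 against 773.5 bases, and wider regions meet a gene more easily. Distances to a start were taken from the midpoint of a region. Within 1 kb of an annotated start lay 9.88% (9.05 to 10.8) of the exclusive and 6.63% (6.35 to 6.91) of the shared regions, and farther than 50 kb from any start 21.1% and 17.5%. Over all wild-type regions, strong or not, the difference near starts was smaller, at 8.94% (8.74 to 9.15) and 8.16% (7.93 to 8.40). For those farther than 50 kb it was 22.3% and 18.1%, and for overlap with a gene 66.1% and 71.8%. Starts on chromosome 18 were not used. In both lists the share of starts with a peak dipped at the start and was highest 1250 bases downstream. At the start it was 2.67% in the knockout and 7.30% in the wild-type list, and 1250 bases downstream 13.4% and 27.6%. The ratio between the lists was 2.06 there and 3.09 at 250 bases upstream, so that the difference was proportionally greatest beside the start.

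**Figure D3:**
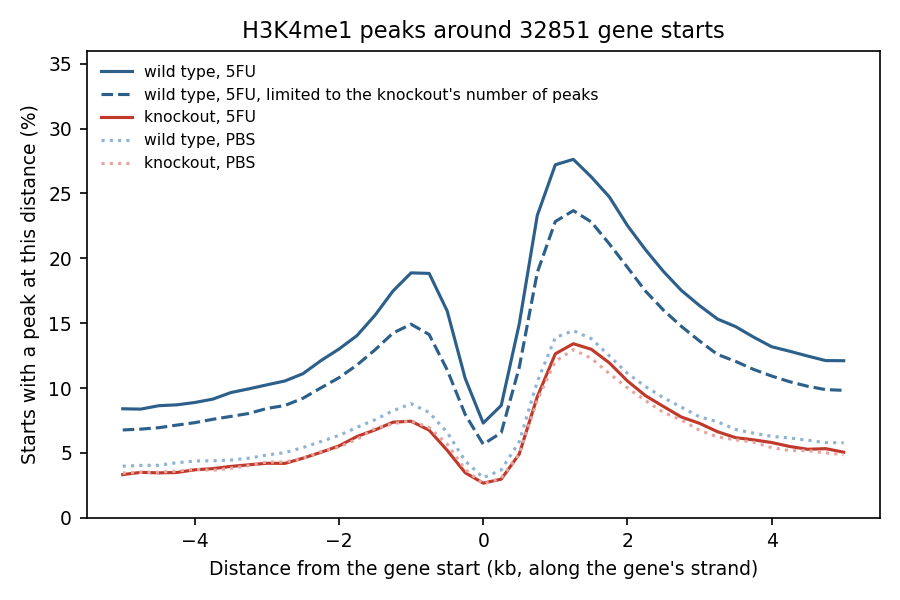
The percentage of 32851 RefSeq starts with an H3K4me1 peak at each distance (x axis, in kb along the gene's strand), for the 5FU lists, the wild-type 5FU list limited to the knockout's number of peaks, and the PBS lists. At 1.25 kb the knockout 5FU curve is at 13.4%, between the PBS curves at 13.0% and 14.4%, while the wild-type 5FU curve is at 27.6%, or 23.7% with the limited list.

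Promoters covered in the wild-type list alone held more CpG dinucleotides than those covered in both lists. Of the 32851 promoter windows 1517 (4.62%) had a peak in both lists, 2784 (8.47%) in the wild-type list alone and 56 (0.170%) in the knockout list alone. The median number of CpG dinucleotides per window was 5 for those in both lists, 8 for those in the wild-type list alone, 14 for the 56 in the knockout list alone and 7 over all windows. The GATA motif was in 14.6% (12.9 to 16.5) of the windows in both lists, 11.5% (10.4 to 12.8) of those in the wild-type list alone and 11.2% of all. The RUNX motif was in 22.0% (19.9 to 24.1), 19.1% (17.7 to 20.7) and 16.8%, and the AP-1 motif in 12.1% (10.5 to 13.8), 8.94% (7.94 to 10.1) and 7.81%. The ETS motif was in 4.68% (3.73 to 5.86), 5.96% (5.14 to 6.90) and 8.86%, and the E-box in 6.86%, 7.79% and 7.15%. Windows overlap where genes share a start, and a match is a description of these letters only.

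Chromosome X held 56 of the knockout regions (0.0734%) and 690 of the wild-type regions (0.523%). Of those 690, 46 (6.67%, 5.04 to 8.78) were covered in the knockout list, against 40.2% on the other chromosomes. The wild-type regions on X were weak, with a median −log10 p of 3.94 against 5.46 elsewhere, and of the 10 strong ones 9 were covered in the knockout list. The low share on X was not particular to the knockout list after 5FU, since X held 87 regions (0.107%) of the knockout and 129 (0.148%) of the wild-type list after PBS, against 0.711% and 0.517% at 8 weeks.

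Coverage per gene was taken as the bases under peaks from 50 kb before to 50 kb after each protein-coding gene. Of 21887 genes, 16910 had at least 1000 covered bases in a list. The median gene had a ratio of 0.435 between knockout and wild type (log2 −1.20, with 1000 bases added to both), and 11 genes had more bases covered in the knockout than in the wild-type list. Ratios are therefore given relative to the median gene, as relative log2 ratios. Of the genes, 1762 (10.4%) were at least 1.5-fold lower in knockout than the median gene and 645 (3.81%) at least 1.5-fold higher. With the wild-type list limited to the covered bases of the knockout list the counts were 983 (6.83%) and 3003 (20.9%) of 14387 genes. Among genes with the most wild-type coverage (the upper quartile, from 20704 bases) 4.61% were lower and 4.26% higher, and their median was 0.14. In the second quartile from below, from 5916 to 11760 bases, 16.0% were lower and 1.51% higher, with a median of −0.12. The lowest quartile, from 181 to 5914 bases, had 12.0% lower and 7.81% higher, with a median of −0.02. It held 330 of the 645 higher genes and 697 of the 712 genes with no covered base in the knockout list.

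**Figure D4:**
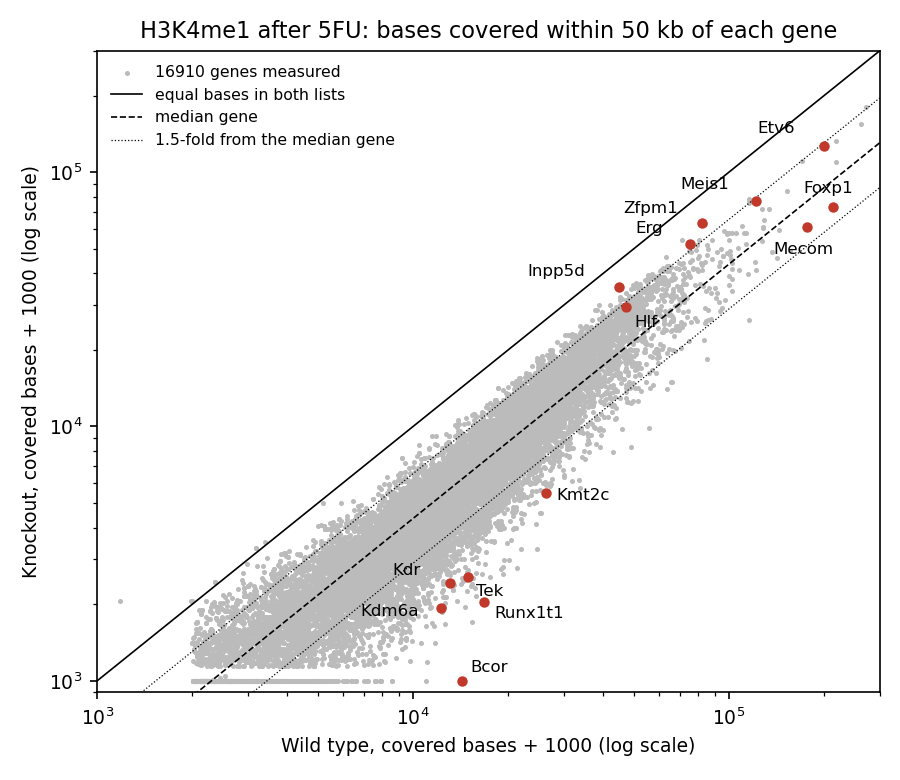
Bases covered by H3K4me1 peaks within 50 kb of each of 16910 genes in the wild-type (x axis) and knockout (y axis) list after 5FU, with 1000 bases added, on log scales. Nearly all genes lie below the line of equal coverage, and the named genes in red include Bcor, with 0 bases in the knockout list, and Zfpm1, with 62055 and 81136.

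The 10 genes with the lowest relative ratios were taken from those with at least 5000 covered bases in a list. Little or no coverage in the knockout list follows from that choice. They were Bcor, Sh3kbp1, Kcna2, Cntnap2, Evx1, Alpk2, Nr3c2, Runx1t1, Npas3 and Zc2hc1b, with ratios from −2.63 to −1.78. Where a gene is at 0 in the knockout list, its ratio depends on the 1000 added bases. The same holds in part for genes with few covered bases in both lists. Bcor, a corepressor of the BCL6 and Polycomb pathways, had 0 bases in the knockout and 13285 in the wild-type list (−2.63), and Sh3kbp1, an endocytic adaptor, 0 and 10014 bases (−2.26). Both are on chromosome X, where 120 of 178 measured genes (67.4%) had no covered base in the knockout list, against 592 of 16732 (3.54%) elsewhere. Runx1t1, a corepressor of the ETO family, had 1044 and 15714 bases (−1.83), and 2005 and 6494 bases after PBS (−1.14). Its ratio was 0.11 with the wild-type list limited to equal covered bases. Nr3c2, the mineralocorticoid receptor, had 404 and 10744 bases (−1.86), while after PBS it had 2345 and 3179 bases (−0.15). Kcna2 and Cntnap2 encode a potassium channel and a cell adhesion protein of neurons, and Evx1 and Npas3 are transcription factors of the developing nervous system.

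The 10 genes with the highest relative ratios, chosen in the same way, by that choice kept most of the wild-type coverage. They were Ugt1a1, Ugt1a2, Olfr1410, Map2k3, Gvin1, Inpp5d, Sh2d4b, Olfr12, Zfpm1 and Ralgapb, with ratios from 0.91 to 0.82. Zfpm1 (FOG1), the partner of GATA factors in erythroid and megakaryocyte cells, had 62055 bases in the knockout and 81136 in the wild-type list (0.82), and 60616 and 59720 after PBS. Inpp5d (SHIP1), a phosphatase that limits PI3K signalling in blood cells, had 34463 and 43808 bases (0.86). Map2k3, a kinase of the p38 pathway, had 8144 and 10480 bases (0.87). Ugt1a1 and Ugt1a2 share a gene end and have the same covered bases, and the windows of the odorant receptor genes Olfr1410 and Olfr12 overlap, so these pairs are not separate observations. At equal covered bases 8 of the 10 were below 0, at −0.41 to −0.01, while Map2k3 was at 0.21 and Olfr12 at 0.09.

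The counts of list members past 1.5-fold stand against 10.4% lower and 3.81% higher over all measured genes, and with 13 to 34 genes a list such shares come to a few genes. Genes of stem cell identity had more of their wild-type coverage in the knockout list than the median gene, in a setting-dependent way. All 34 were measured, 21 above and 13 below the median gene, and the list median was 0.14. Erg, an ETS factor that HSCs need, had 51351 bases in knockout and 74231 in wild type (0.68), and Adgrg1, an adhesion receptor of HSCs, 41789 and 63614 (0.61), but at equal covered bases they were at 0.03 and −0.23. Tek, the receptor for angiopoietins, was the 1 gene at least 1.5-fold lower, with 1555 and 13920 bases (−1.34, and −1.42 at equal covered bases). After PBS Tek had 2851 and 3723 bases. With equal numbers of peaks the list median was 0.05, and at equal covered bases −0.17 with 23 of 34 genes below. Of these 34 genes 29 were in the upper quartile by wild-type coverage, where the median over all genes was 0.14 as deposited and −0.12 at equal covered bases.

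The other lists of stem cell genes had medians near 0. HSC homing and adhesion genes had a median of 0.11 as deposited (7 of 20 below) and −0.28 at equal covered bases, and S1pr1 was the 1 gene at least 1.5-fold lower, with 4217 bases in knockout and 20444 in wild type (−0.84). HSC surface and cytokine receptors had a median of −0.02, or −0.27 at equal covered bases, with Tek lower and Tgfbr1, a TGF-beta receptor, higher (13878 and 19628 bases, 0.73). Quiescence and immediate early genes had a median of 0.02, with 2 members on each side past 1.5-fold. Jund had 11165 and 16977 bases (0.64, but −0.15 at equal covered bases) and Klf4 897 and 1769 (0.66). The knockout list covered 50.7% of the wild-type bases for Klf4, against 65.8% for Jund. Klf4 had few covered bases in both lists, so its ratio depends in part on the added bases. Jun had 1733 and 9790 (−0.78, but 0.88 at equal covered bases) and Nr4a2 449 and 5155 (−0.89). Members past 1.5-fold against the direction of their list's median, here and in the lists that follow, and Isg15 were named after their values were seen.

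Lineage lists lay close to the median gene. Granulocyte and monocyte genes had a median of 0.06 with 9 of 20 below, and 3 were at least 1.5-fold lower, against 10.4% of all genes. These were Itgam, the integrin CD11b (5149 bases in knockout and 21536 in wild type, −0.67), the lysozyme gene Lyz2 (1788 and 9264, −0.68) and Gfi1, a repressor of neutrophil development (7016 and 26808, −0.59, but 0.42 at equal covered bases). Megakaryocyte and erythroid genes had a median of 0.06, with Zfpm1 higher and Ank1, the erythrocyte ankyrin, lower (3126 and 17975 bases, −1.0). Lymphoid genes had a median of 0.01, with Ebf1, Lef1 and Satb1 lower at −0.61, −0.68 and −0.86. At equal covered bases Lef1 was at 2.17 and Ebf1 at 0.95, so their direction depended on list size.

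Lists of stress and inflammation genes were not far from the median gene either. Genes of the NF-kB and IL-1 response had a median of 0.09 with 3 of 25 at least 1.5-fold lower, a share near the 10.4% of all genes. These were Rel, an NF-kB subunit (342 bases in knockout and 6866 in wild type, −1.35), Irak1, an X-linked kinase of the IL-1 receptor pathway (0 and 3289, −0.90), and Il6 (222 and 3974, −0.82). Interferon response genes had the lowest median of the 20 lists as deposited, −0.12, with 17 of 28 below and 0 past 1.5-fold in either direction. Isg15, a ubiquitin-like antiviral protein, had 2233 and 9476 bases (−0.49, but 1.62 at equal covered bases). The median of this list was −0.18 with equal numbers of peaks, −0.02 at equal covered bases and −0.13 after PBS. Antigen presentation genes had a median of 0.19 with 12 of 16 above, and −0.24 with 12 of 16 below at equal covered bases. Of these 16 genes 15 were in the upper quartile by wild-type coverage.

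Genes of damage response and of the drug's own pathway had medians between −0.08 and 0.11. The p53 response list had a median of 0.09 (14 of 24 above), 0.13 with equal numbers of peaks and 0.04 at equal covered bases, and Mdm2, the ubiquitin ligase that degrades p53, was the 1 gene at least 1.5-fold lower (2305 and 11372 bases, −0.70). DNA repair genes had a median of −0.08 with 17 of 27 below. Nbn, a member of the double-strand break sensor, had 702 bases in knockout and 6384 in wild type (−0.92, and −1.33 at equal covered bases), and Apex1, an endonuclease of base excision repair, 2950 and 14425 (−0.76, but 0.47 at equal covered bases). Apoptosis regulators had a median of 0.11, with Bid higher (8155 and 12529 bases, 0.64, but −0.58 at equal covered bases) and Casp8 lower (510 and 4529, −0.67). Cell cycle genes had a median of −0.04. Cdc25a, a phosphatase that starts S phase, had 835 and 6985 bases (−0.92), and Aurka, a mitotic kinase, 924 and 7049 (−0.86). Myc had 958 and 1737 (0.72), which is few in both lists, so its ratio depends in part on the added bases.

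Genes of 5FU action and pyrimidine metabolism had a median of 0.07 with 17 of 29 above. Tyms, which encodes thymidylate synthase, the target of 5FU, had 434 bases in knockout and 5888 in wild type (−1.06), and after PBS 659 and 785. Its ratio was −0.57 with equal numbers of peaks, short of 1.5-fold, −0.18 with a −log10 p of at least 5 and −0.23 with 5000 added bases. Upp2, a uridine phosphorylase, had 1932 and 11290 bases (−0.87). Dut, which removes dUTP, was higher with 1584 and 2917 bases (0.60), and its ratio was 1.3 at equal covered bases. With 5000 added bases the ratio of Dut was 0.51, short of 1.5-fold. Dpyd, the main enzyme of 5FU breakdown, had 0 and 464 bases and was not measured. Housekeeping genes had a median of 0.19 with 19 of 26 above, and 0.08 at equal covered bases. The X-linked Hprt was the 1 of them at least 1.5-fold lower, with 0 and 2566 bases (−0.63).

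The Kmt2c and Kmt2d complexes, of which 21 genes were measured, had a median of −0.04, with 11 below and 10 above. Kmt2c (−1.07) and Kdm6a (941 and 11285 bases, −1.46) were at least 1.5-fold lower and Pagr1a, a subunit of the same complexes, was higher (16123 and 23815, 0.67, but −0.14 at equal covered bases). Kmt2c reached 1.00 at equal covered bases, and its window had more bases in the knockout than the wild-type list after PBS, so its direction depended on the list. Kmt2d had 9180 and 23016 bases (−0.04). Kdm6a, on chromosome X, had 204 and 2861 bases after PBS (−1.51), but at 8 weeks it had more in the knockout list, 8425 against 2286 (1.13).

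**Figure D5:**
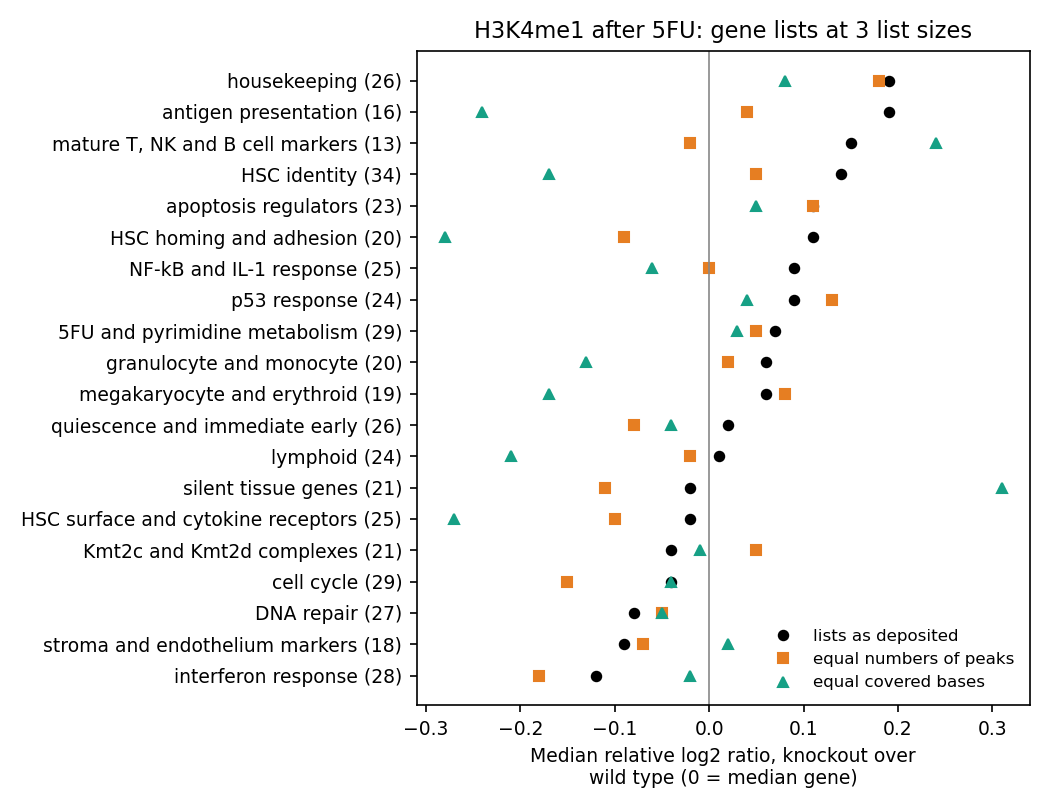
Median relative log2 ratio (x axis, knockout over wild type, 0 for the median gene) of 20 gene lists (y axis, with the number of genes measured) for the lists as deposited, with equal numbers of peaks and with equal covered bases. HSC identity moves from 0.14 to −0.17 and antigen presentation from 0.19 to −0.24 when covered bases are made equal, while housekeeping stays above 0 and interferon response below it.

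Of the 20 lists, 8 had a median on the same side of the median gene in all 3 sizes. These were interferon response, cell cycle, DNA repair, and HSC surface and cytokine receptors below it, and p53 response, 5FU and pyrimidine metabolism, apoptosis regulators and housekeeping above it. The largest of their 24 medians in size was −0.27. Of these 8, interferon response alone kept its sign in the other settings too. With a −log10 p of at least 5, p53 response was at −0.11, housekeeping at −0.07 and DNA repair at 0.03. Cell cycle was at 0.15 with 10 kb windows. With 5000 added bases, 5FU and pyrimidine metabolism was at −0.02 and apoptosis regulators at −0.01. HSC surface and cytokine receptors were at 0.03 with a minimum of 5000 covered bases.

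Genes of other cell types and tissues were covered as well. Mature T, NK and B cell markers had a median of 0.15 with 6 of 13 below, and Fcer2a, the low-affinity IgE receptor, was at least 1.5-fold lower (6642 and 27066 bases, −0.68). Stroma and endothelium markers had a median of −0.09, with Kdr, a VEGF receptor (1421 and 12126 bases, −1.24), and Col1a2 (390 and 4448, −0.77) lower and Col1a1 higher (9613 and 14640, 0.64, but −0.25 at equal covered bases). Genes silent in blood had a median of −0.02, and 0.31 at equal covered bases. Pax6, a factor of eye and brain, had 2005 and 13182 bases (−1.04), Olig2 2314 and 11360 (−0.70), Sox1 1219 and 6740 (−0.60) and Gcg 0 and 2802 (−0.73), while Actn2 was at 0.59 and Umod at 0.92. At equal covered bases Pax6, Olig2 and Sox1 were at 1.52, 0.47 and 0.15.

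The labelled cell type was compared with defining markers. All 10 HSC markers had covered bases in both lists, 289211 in sum in the knockout and 651756 in the wild-type list, led in the wild type by Mecom, a regulator of self-renewal (59877 and 175010). The committed myeloid markers Ctsg and Ly6c2 were at 0 in both lists, while the other 5 of 7 had peaks, with 73890 and 156128 bases in sum. Elane (24634 and 47622 bases) and Prtn3 (23330 and 46625) contributed the most. They are neighbours with nearly the same window, so most of their bases enter the sum for each gene. The sum and the percentage for this type are thus not those of 5 separate loci. The 5 erythroid and megakaryocyte markers had 44516 and 102883 bases in sum. Of 6 mature lymphoid markers Ms4a1 was at 0 in both lists, and the sums were 24934 and 53694. Of 5 stroma and endothelium markers Lepr had 0 bases in the knockout and 682 in the wild-type list, and the sums were 12965 and 33628. The knockout list covered 44.4% of the wild-type bases for HSC markers, 47.3%, 43.3% and 46.4% for the 3 blood lineages and 38.5% for stroma and endothelium, against 41.7% over all measured genes. Windows of 50 kb hold neighbouring genes too, and H3K4me1 also marks poised genes, so coverage is not a level of expression. The lists cannot separate fewer cells with a mark from less of the mark per cell.

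Among further reference genes, Hlf, a stem cell factor, had 28590 bases in knockout and 46083 in wild type (0.53), and after PBS 28118 and 32224 (−0.02). Spi1, the myeloid and lymphoid factor PU.1, had 19932 and 34159 bases (0.45) and Cebpa, a myeloid factor, 7853 and 17937 (0.10). Il1r1, which encodes the signalling receptor for IL-1, had 11108 and 26982 bases (−0.01), and Nfkbia, an inhibitor of NF-kB, 11054 and 22225 (0.26). Cdkn1a, the gene of the cyclin-dependent kinase inhibitor p21, had 8974 and 30734 bases (−0.47), and its ratio was −0.43 after PBS. Trp53 itself had 6707 and 14529 bases (0.19). At equal covered bases Hlf was at −0.29, Cebpa at −0.34, Nfkbia at −0.07 and Trp53 at −0.13, so their direction depended on list size.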

How the data were processed

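ChIPmentation of sorted mouse HSCs gave 1 deposited peak list per group. The tools named are Novoalign and MACS2 and the builds mm10 and GRCm38, per the submitters' processing notes, and their versions and settings are not stated there. Per the labels, 1 list stands for all libraries of a group. Each peak carries the authors' deposited fold enrichment (a ratio) and −log10 p, which are the peak's own values and were used to rank or filter peaks within a list. No value has a replicate, and no test was made.

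Peaks were read as regions and compared by an overlap of at least 1 base with Python 3.11.15, numpy 2.4.6, pandas 2.3.3 and scipy 1.17.1, and plotted with matplotlib 3.10.9. Coverage per gene used RefSeq (GRCm38.p6) intervals of 21887 protein-coding genes extended by 50 kb, log2((knockout + 1000)/(wild type + 1000)), minus the median over genes with at least 1000 covered bases in a list. Of 465 symbols in 20 gene lists 462 matched. The windows of 16910 genes were measured. Shares have 95% Wilson intervals. Overlap, coverage and merging of regions were tested on simulated data. Read depth is unknown. Alternatives were equal numbers of peaks, equal covered bases, a −log10 p of at least 5, an overlap of 50%, merging within 1000 bases, no X or Y, other measures of strength, 10 kb windows, 5000 added bases and a minimum of 5000 covered bases.

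Genes were named by rule: in each direction the 8 strongest exclusive regions with a gene within 50 kb, up to 3 members per list past 1.5-fold in the direction of its median, in each direction the 10 genes with the largest ratio among those with at least 5000 covered bases in a list, and 14 reference genes. The members and lists were chosen with earlier results of these data known. Values of some genes are not reported here.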

Additional observations from a re-analysis of the deposited data

How the results depend on the processing

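Of the strong exclusive regions, the knockout list held 0.539% as deposited and 0.539% without chromosomes X and Y. The share was 19.8% with equal numbers of peaks and 99.2% with equal covered bases, which takes weak peaks from the wild-type list alone. Strong was redrawn in each shortened list, which left 5822 strong wild-type against 19259 strong knockout regions at equal covered bases. It was 1.87% with a −log10 p of at least 5, 0.886% with an overlap of 50%, 1.13% with peaks within 1000 bases merged, 0.885% with strength by fold enrichment and 1.60% with the top 10% as strong. The coverage values that follow are for equal peaks, equal bases, a −log10 p of at least 5, an overlap of 50% and merging, in that order. Of knockout regions, 90.1%, 47.3%, 96.9%, 96.5% and 97.7% were covered in the wild-type list. Of wild-type regions, 61.3%, 94.9%, 32.7%, 39.0% and 49.4% were covered in the knockout list. Without chromosomes X and Y the 2 shares were 97.9% and 40.2%. Genes at least 1.5-fold lower numbered 1762 as deposited, 983 with equal covered bases, 2890 with a −log10 p of at least 5 and 464 with 5000 added bases. Genes at least 1.5-fold higher numbered 645 as deposited and, with the same alternatives, 3003, 1786 and 170, and 346 with a minimum of 5000 covered bases. Leaving out genes on X and Y, chosen after seeing the data, left 1703 and 641. The cause of these changes was not tested. At equal covered bases 19 of the 51 named genes with a value turned round: Inpp5d to −0.01, Ugt1a1, Ugt1a2 and Olfr1410 to −0.03, Inf2 and Sh2d4b to −0.04, Jund to −0.15, Zfpm1 to −0.17, Ralgapb and Adgrg1 to −0.23, Gvin1 to −0.41, Dynlt1b to −0.50, Bid to −0.58, Runx1t1 to 0.11, Apex1 and Olig2 to 0.47, Myo10 to 0.76, Kmt2c to 1.00 and Pax6 to 1.52. Gcg was at 0.13 with 5000 added bases and Cdc25a at 0.32 with 10 kb windows. With 5000 added bases 30 of 64 named genes came to less than 1.5-fold, and with equal numbers of peaks 13 of 62. The medians of 14 of 20 gene lists kept their sign with equal numbers of peaks, 10 at equal covered bases and 9 with 5000 added bases. No library could be left out, since each list pools its libraries. No paired analysis was possible because each group has 1 pooled list and no test was made.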
